A study of Mus musculus with 22 samples.

Results

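The genes described here are those that encode the proteins of the mitochondrial ribosome under the names Mrpl and Mrps, followed in NIH3T3 cells in which Denr had been knocked down. Every gene whose mouse symbol is Mrpl or Mrps with a number was taken, which gave 74 of the 10516 genes measured, 49 of the large subunit, 24 of the small subunit and 1, Mrps36, that belongs to no ribosomal subunit and is known as a component of the 2-oxoglutarate dehydrogenase complex. The rule reads the symbol alone. Mrps30 and Mrps18a, which carry a small-subunit name, were counted with the large subunit, where their proteins sit.

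NIH3T3 is an established mouse embryonic fibroblast line. The cells had been transduced with lentiviral vectors that express Denr shRNA1 (3 lysates), Denr shRNA2 (3 lysates), a shRNA against Gfp (2 lysates) or a scramble shRNA (3 lysates), selected with puromycin, and grown to confluency, so that the control cells carried the same vector backbone and the same selection as the knockdown cells. All were treated with cycloheximide at 100 µg/ml for 2 min before lysis, and each of the 11 lysates gave a library of ribosome-protected fragments (RPF-seq) and a parallel RNA-seq library. A replicate was 1 dish of cells. It is not stated whether the dishes came from separate transductions, so p-values measure the spread between these dishes, and all lysates come from 1 cell line.

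Mitochondrial ribosomes translate the few proteins encoded by mitochondrial DNA, all of them subunits of the respiratory chain and the ATP synthase. Their rRNAs are made inside the organelle, but all their proteins are encoded in the nucleus, translated by cytoplasmic ribosomes and imported. DENR acts together with MCTS1 on the cytoplasmic small ribosomal subunit and is known to promote reinitiation, the restart of translation at the main coding sequence (CDS) by a ribosome that has just translated an upstream open reading frame (uORF) in the 5′ UTR. The comparison asked whether ribosomes on the CDS and on the 5′ UTR of the mitoribosomal protein genes, and the RNA of these genes, changed when Denr was depleted.

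Printed first are the starts of uORFs in the 5 members whose translation efficiency (TE, defined with the results) had an unadjusted p below 0.05, 3 of which also fell in CDS footprints. These 5 are 6.76% of the members, against 6.66% of all genes at that level, and 0 members passed after adjustment (limma). All 5 held at least 1 AUG uORF that also stops within the 5′ UTR. They were read from the GENCODE vM21 transcript whose 5′ UTR and CDS lengths equalled those behind the RPKM. Where no transcript did, the one with the longest CDS was taken. Positions are those of GRCm38. Each line gives 20 nt from 5′ to 3′ on the strand of the gene, with the start codon of the uORF in capitals. Mrpl30 held 1 such start in exon 1, at chr1:37890497-37890516, and 1 in exon 2, at chr1:37892959-37892978, both on the plus strand. For this gene the length behind the 5′ UTR RPKM was 1817 nt, against 215 nt in the transcript shown here. The starts of Mrps15 at chr4:126046981-126047000 and of Mrpl51 at chr6:125192178-125192197 and chr6:125192211-125192230 also lie on the plus strand. Those of Mrpl37 at chr4:107066828-107066847 and of Mrpl18 at chr17:12916073-12916092 lie on the minus strand.
Mrpl30, first uORF: cgtggtttgaATGttgcact
Mrpl30, second uORF: cctggctggaATGctgtccg
Mrps15: ccgaaccgtcATGgctgcgc
Mrpl51, first uORF: ccaccttgggATGactccct
Mrpl51, second uORF: aaggcccaaaATGgctcctc
Mrpl37: acgggcaaagATGgcggcgt
Mrpl18: cacagttaacATGgctgcga

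Several of these uORFs are very short, so that they can be shown whole, from the start codon to the stop codon. The uORF of Mrps15 has 18 nt and that of Mrpl37 also has 18 nt. The first uORF of Mrpl51 has 12 nt and its second has 30 nt.
Mrps15, whole uORF: ATGgctgcgcccatgtaa
Mrpl37, whole uORF: ATGgcggcgtccaggtag
Mrpl51, first uORF whole: ATGactccctaa
Mrpl51, second uORF whole: ATGgctcctcttactgtcactaccgtgtga
The uORFs of Mrpl30 have 93 and 42 nt, and that of Mrpl18 has 36 nt. The distance from the stop codon of the uORF to the CDS start was 92 and 39 nt in Mrpl30, 61 nt in Mrps15, 155 and 104 nt in Mrpl51, 24 nt in Mrpl37 and 48 nt in Mrpl18. Whether these uORFs were translated could not be read from the values used, which give 1 number for a whole 5′ UTR.

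A further sequence set was drawn because it was frequent around the CDS start of these genes. The letters AAG directly before a CDS that opens with ATGGCGGC, searched on the transcript strand only, belong to the element known as TISU (translation initiator of short 5′ UTRs), which is known to direct scanning-independent initiation on mRNAs with very short leaders. Only these letters were searched, so a match does not show the whole element or a very short leader. The letters were present in 6 of the 74 members (8.11%), against 1.35% of the 10469 genes with a matched transcript. The shorter letters ATGGCGGC, without the AAG, opened the CDS of 19 members (25.7%), against 4.15% of those genes. The starts of the 6 genes are given as 20 nt on the strand of the gene, with the searched letters in capitals, from chr6:71823749-71823768 for Mrpl35, chr11:116138768-116138787 for Mrpl38, chr7:78783019-78783038 for Mrpl46, chr17:47368897-47368916 for Mrps10, chr17:46111008-46111027 for Mrps18a and chr13:99344793-99344812 for Mrps27.
Mrpl35: aggctgcAAGATGGCGGCtt
Mrpl38: tgggggaAAGATGGCGGCgc
Mrpl46: agacagaAAGATGGCGGCgc
Mrps10: gggcaccAAGATGGCGGCgc
Mrps18a: gcgttccAAGATGGCGGCcc
Mrps27: gcgctccAAGATGGCGGCtc
The same letters also surrounded the uORF start of Mrpl37 shown above. That was 1 of the 50 AUG uORFs in members, while 67 of 13926 uORFs in all genes had them.

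The 5′ UTRs of the members were short. Their median length in the annotation was 94.5 nt, against 173 nt over all genes, and 28.4% of them had under 50 nt, against 12.4%. An AUG uORF of at least 9 nt was found in 27 members (36.5%, against 48.5% of all genes). In 21 of them (28.4%, against 40.9%) at least 1 uORF also stopped within the 5′ UTR, in 6 the uORFs all ran into the CDS, and 47 members held none.

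Denr itself was checked first. Its CDS footprints were 9.25 to 43.2 RPKM (reads scaled by the length of the region and by the normalized library size) in the 6 knockdown lysates and 152 to 179 RPKM in the 5 control lysates, a log2 change of -3.05 (SE 0.32, limma, adjusted p = 4.4e-04). Its RNA was 15.5 to 44.0 RPKM against 165 to 190 RPKM (log2 change -2.75, SE 0.25, limma, adjusted p = 3.5e-04). All 8 fibroblast markers of a list that holds Col1a1, Vim and Pdgfrb were expressed, with control means of 30.8 to 4106 RPKM in RNA-seq. The libraries held 10927303 to 21649878 reads in RPF-seq and 8514080 to 20109700 in RNA-seq, and the CDS of a member had 137 to 5209 footprint reads (median 1132.5) and 100 to 4175 RNA reads (median 979.5) per library. Among the knockdown lysates 1 stood apart. In replicate 1 of Denr shRNA1 the median of the members' RNA was 0.24 above the control mean on the log2 scale, and their median TE was -0.23. In the other 5 knockdown lysates those medians were -0.02 to -0.12 for RNA and 0.02 to 0.09 for TE. The controls also varied, from -0.13 to 0.09 for RNA and from -0.13 to 0.07 for TE. Both ends of that RNA range and the lowest TE were those of Gfp lysates. Over all genes replicate 1 of Denr shRNA1 had 0.12 for RNA and -0.11 for TE. Values without it are given beside the medians and calls that moved.

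Mitoribosomal protein genes were well expressed and well translated in the control cells. The median member had 102 RPKM in RNA-seq, against 28.2 RPKM over all genes, and 144 RPKM in CDS footprints, against 23.1 RPKM. TE, the log2 ratio of footprint to RNA RPKM on the CDS, had a median of 0.35 over the members and of -0.08 over all genes, and it was above 0 in 59 of the 74 members (79.7%, against 46.5% of all genes). These RPKM values are scaled per length so that genes can be set side by side, but how well they compare between genes was not tested. RPF-seq and RNA-seq were normalized separately, so 0 on the TE scale has no absolute meaning.

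Although the proteins of all members but Mrps36 end up in 1 complex, the levels of the members' RNAs differed widely. The highest RNA levels in the controls were those of Mrpl33 (550 RPKM ± 53.1, SD, n = 5), a large-subunit protein with a bacterial counterpart, of Mrpl13 (423 ± 29.4), and of Mrps21 (348 ± 30.9), the counterpart of bacterial S21. The lowest were those of Mrpl48 (18.9 ± 1.93), Mrps31 (19.6 ± 3.06) and Mrpl24 (23.1 ± 2.46). Mrpl48 and Mrps31 could not be separated by their SD, whereas Mrpl33, Mrpl13 and Mrps21 were separated by more than their SD.

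In CDS footprints Mrpl33 again came first, with 949 RPKM in the controls, followed by Mrps6 with 625 and Mrpl13 with 494. Mrpl48 (23.9), Mrpl24 (25.3) and Mrps31 (29.8) had the fewest. The order of TE was a different one. Mrpl14, a universally conserved large-subunit protein, had the highest TE (1.81 ± 0.16), followed by Mrps6 (1.30 ± 0.08) and Mrpl34 (1.23 ± 0.23), which overlap within their SD. The lowest TE was that of Mrpl42 (-0.54 ± 0.08), a protein found only in mitochondrial ribosomes, followed by Mrpl30 (-0.36 ± 0.17) and Mrpl18 (-0.35 ± 0.10), whose values also overlap. Mrpl42 was thus among the more abundant RNAs (346 RPKM ± 22.9) while being the least translated per RNA. Members with a uORF within the 5′ UTR had a lower median TE in the controls (0.24) than members without an AUG uORF (0.45), a description without a test.

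**Figure D1:**
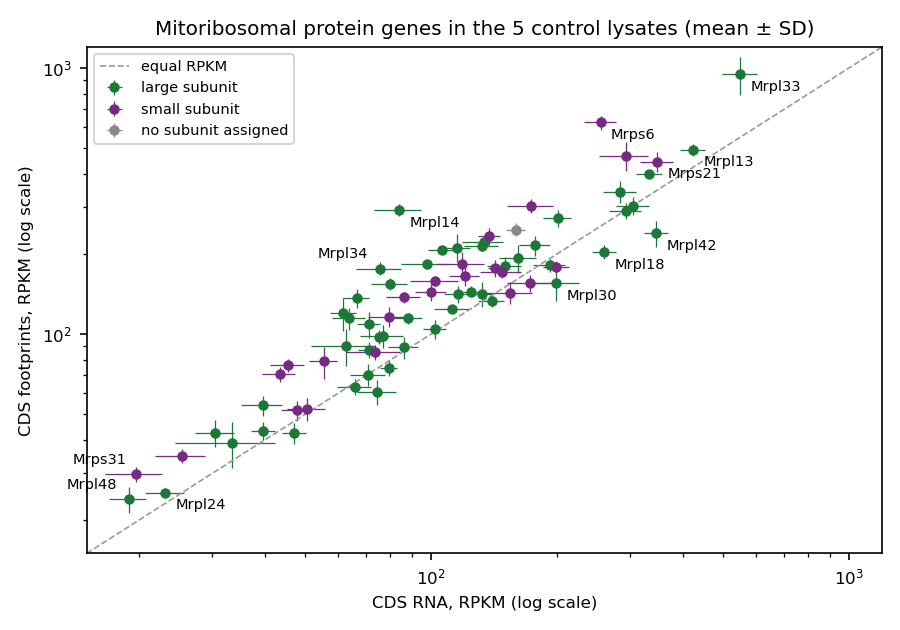
CDS footprints against CDS RNA of the 74 mitoribosomal protein genes, both in RPKM on log axes, as mean and SD of the 5 control lysates. RNA spans 18.9 to 550 RPKM and footprints span 23.9 to 949 RPKM, with Mrpl33 at the top and Mrpl48 at the bottom of both.

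On Denr knockdown, TE did not pass the test in any of the 74 members (limma, FDR of 0.1), whereas 0.475% of all genes passed, 50 of them lower and 0 higher. At an unadjusted p below 0.05 there were the 5 members named above, all lower, a share at the background. The median TE change of the members was 0.03 on the log2 scale (all genes -0.01), with 29 members below 0 and 45 above, and the range ran from -0.47 to 0.16. The median turned with the lysates used, since it was 0.07 without replicate 1 of Denr shRNA1, -0.01 without replicate 1 of Gfp shRNA and -0.03 with Denr shRNA1 as the only knockdown. In each of these 0 members passed.

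The lowest TE change was that of Mrpl30, the counterpart of bacterial L30 in the large subunit. Its log2 TE was -1.11, -0.54 and -0.76 with Denr shRNA1 and -1.08, -0.83 and -0.65 with Denr shRNA2. It was -0.53 and -0.33 with Gfp shRNA and -0.42, -0.08 and -0.43 with scramble shRNA. Every knockdown lysate was therefore below every control lysate, the only such case among the members, while 1.42% of all genes had groups that did not overlap. The change was -0.47 (SE 0.12, limma, adjusted p = 0.21, exact two-sided permutation p = 0.0043).

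The other 4 with an unadjusted p below 0.05 were Mrps15, the counterpart of bacterial S15 (-0.38, SE 0.10, adjusted p = 0.26 with limma), Mrpl51 (-0.28, SE 0.08, adjusted p = 0.29 with limma), Mrpl37 (-0.22, adjusted p = 0.64 with limma) and Mrpl18 (-0.17, adjusted p = 0.65 with limma). Mrpl51 and Mrpl37 are mitochondria-specific proteins of the large subunit, and Mrpl18 is a universally conserved one. The uORFs of these 4 genes and of Mrpl30 are those shown above. In all 4 the knockdown and control lysates overlapped. The 4 members with the highest TE change were Mrpl12 (0.16), Mrpl36 (0.14), Mrpl19 (0.14) and Mrps18a (0.13), with adjusted p-values of 0.88 to 0.94 (limma).

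CDS footprints, which give the ribosomes on a coding sequence without division by the RNA, passed the test in 7 members. This is 9.46% of the members against 10.0% of all genes, a share close to the background. Mrpl30, Mrps15 and Mrpl51 fell (4.55% of all genes fell), and Mrps6, Mrpl36, Mrpl12 and Mrpl43 rose (5.47% of all genes rose). At an unadjusted p below 0.05 there were 10 members (limma), 3 lower and 7 higher, against 23.6% of all genes. The median change over the members was -0.01 (all genes 0.01), with 42 below 0 and 32 above. All 7 changes were small, between -0.38 and 0.27 on the log2 scale, with exact two-sided permutation p-values from 0.0022, the smallest that the design allows, to 0.019. The lysates hold bulk RNA of many cells, so that fewer cells with a transcript and less of it per cell cannot be told apart.

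The 3 members whose footprints fell all held a uORF within the 5′ UTR of the transcript used, and were also the 3 with the lowest TE change. Mrpl30 had 114, 135 and 137 RPKM with Denr shRNA1, 101, 109 and 121 RPKM with Denr shRNA2, 134 and 138 RPKM with Gfp shRNA, and 148, 178 and 181 RPKM with scramble shRNA. The groups overlapped at 134 to 137 RPKM, where both Gfp lysates lay close to the upper knockdown lysates. The means were 119 ± 14.4 RPKM (SD, n = 6) in knockdown cells and 156 ± 22 RPKM (n = 5) in controls, a log2 change of -0.38 (SE 0.10, limma, adjusted p = 0.046), while the RNA change was 0.09 (limma, adjusted p = 0.69).

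Mrps15 had 114, 123 and 136 RPKM of footprints with Denr shRNA1, 97.1, 115 and 117 RPKM with Denr shRNA2, 127 and 146 RPKM with Gfp shRNA, and 133, 156 and 155 RPKM with scramble shRNA. Only 1 knockdown lysate, replicate 3 of Denr shRNA1, reached into the range of the controls. The change was -0.30 (SE 0.08, limma, adjusted p = 0.055), with an RNA change of 0.09.

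Mrpl51 had 294, 273 and 272 RPKM with Denr shRNA1 and 247, 251 and 247 RPKM with Denr shRNA2. It had 296 and 306 RPKM with Gfp shRNA and 334, 311 and 269 RPKM with scramble shRNA. With Denr shRNA2 all lysates lay below all controls, whereas with Denr shRNA1 all 3 lay within the control range. Its change of -0.20 (SE 0.07, limma, adjusted p = 0.099) was barely past the threshold, and it passed in 8 of 21 settings of the analysis.

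Of the members whose footprints rose, Mrps6, the counterpart of bacterial S6, had the largest change. Its footprints were 753, 766 and 788 RPKM with Denr shRNA1, 755, 714 and 758 RPKM with Denr shRNA2, 657 and 673 RPKM with Gfp shRNA, and 616, 595 and 586 RPKM with scramble shRNA. The groups did not overlap. The means were 755 ± 24.1 RPKM (n = 6) and 625 ± 37.9 RPKM (n = 5), a log2 change of 0.27 (SE 0.06, limma, adjusted p = 0.016), and the gene passed in all 21 settings. Its RNA change of 0.18 had an adjusted p of 0.27 (limma), and its TE change was 0.09. Mrps6 shares 159 nt of exon with Slc5a3 on the same strand, and its 5′ UTR had 0 to 2 footprint reads per library.

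Mrpl12 encodes the stalk protein of the large subunit, which contacts translation factors. Its footprints were 322, 381 and 346 RPKM with Denr shRNA1, 334, 345 and 331 RPKM with Denr shRNA2, 260 and 287 RPKM with Gfp shRNA, and 290, 310 and 311 RPKM with scramble shRNA. This was the second member whose groups did not overlap (4.45% of all genes had groups that did not overlap), and the change was 0.24 (SE 0.06, limma, adjusted p = 0.045).

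Mrpl36, a very small large-subunit protein with a bacterial counterpart, had 243, 272 and 262 RPKM with Denr shRNA1 and 250, 259 and 207 RPKM with Denr shRNA2. The controls were tighter, with 202 and 204 RPKM for Gfp shRNA and 217, 210 and 204 RPKM for scramble shRNA. Replicate 3 of Denr shRNA2 was the only knockdown lysate within the control range, and the change was 0.26 (SE 0.07, limma, adjusted p = 0.043). Mrpl36 holds a uORF within the 5′ UTR, as did the 3 members that fell, but the length behind its 5′ UTR RPKM was 96 nt, against 353 nt in the transcript on which the uORF was found.

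Mrpl43, a mitochondria-specific large-subunit protein, had 250 ± 14.4 RPKM in knockdown cells and 222 ± 12.8 RPKM in controls. Its lysates ranged from 237 to 270 RPKM in knockdown cells and from 207 to 240 RPKM in controls, and so overlapped. Its change of 0.18 (SE 0.06, limma, adjusted p = 0.093) passed in 7 of 21 settings, not in the one without replicate 1 of Denr shRNA1, and went with an RNA change of 0.24 (limma, adjusted p = 0.19). Its exons share 385 nt with Twnk on the opposite strand, and those of Mrpl36 share 30 nt with Ndufs6.

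**Figure D2:**
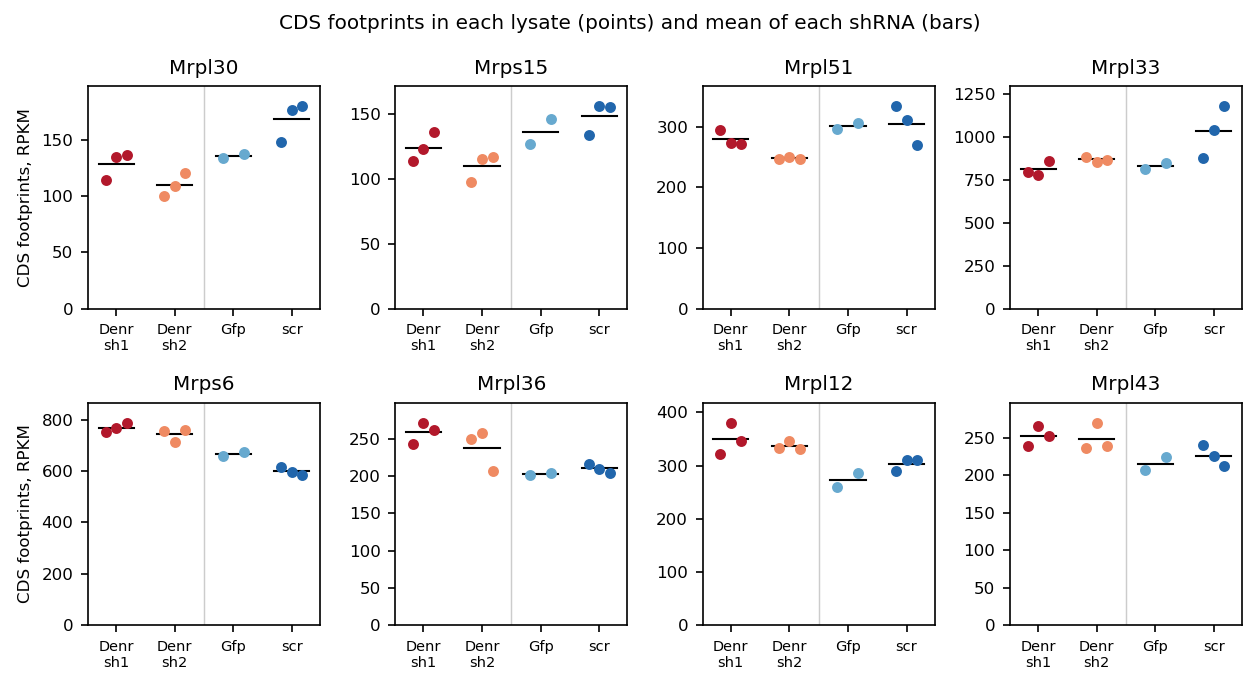
CDS footprints in RPKM (linear axes from 0) of 8 mitoribosomal protein genes in each of the 11 lysates, as points with a bar for the mean of each shRNA. The control points of Mrps6 and Mrpl12 all lie below the knockdown points, whereas in Mrpl30, Mrps15 and Mrpl51, which fell, 1 or more lysates of the groups overlap. Mrpl33 is the member with the lowest RNA change and did not pass in footprints.

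In RNA-seq none of the 74 members passed the test (limma, FDR of 0.1), against 3.55% of all genes. At an unadjusted p below 0.05 there were 6, of which 3 were lower and 3 higher, 8.11% of the members against 16.1% of all genes. The median change was -0.0043 (all genes 0.03), or -0.05 without replicate 1 of Denr shRNA1, when Mrpl21 (-0.23) and Mrpl33 passed, and the range ran from -0.28 to 0.24. No member had RNA groups that did not overlap, against 3.67% of all genes.

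Mrpl33 had the lowest RNA change. Its RNA was 524, 451 and 445 RPKM with Denr shRNA1, 474, 413 and 412 RPKM with Denr shRNA2, 533 and 477 RPKM with Gfp shRNA, and 563, 552 and 624 RPKM with scramble shRNA. Replicate 1 of Denr shRNA1 was the 1 knockdown lysate above the lower Gfp lysate. The change was -0.28 (SE 0.09, limma, adjusted p = 0.12), and it was -0.32 and past the threshold without replicate 1 of Denr shRNA1. Mrpl49 (-0.20), Mrps22 (-0.19) and Mrpl16 (-0.18) came next, with limma adjusted p-values of 0.24 to 0.40. At the other end stood Mrpl43, Mrpl17 (0.20), Mrps6 (0.18) and Mrpl37 (0.17), with limma adjusted p-values of 0.19 to 0.35. For Mrpl37 the footprint change was -0.05.

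**Figure D3:**
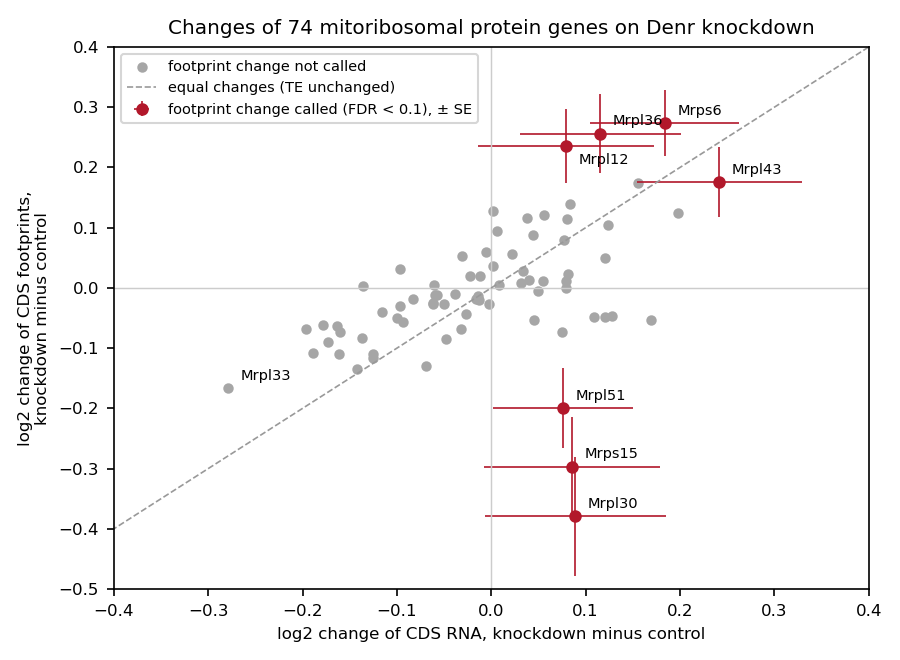
Log2 change of CDS footprints (vertical axis) against log2 change of CDS RNA (horizontal axis) for the 74 mitoribosomal protein genes, knockdown minus control. The members that passed the test in footprints are marked with SE bars, and the dashed line marks equal changes. Mrpl30, Mrps15 and Mrpl51 lie at the bottom with RNA changes of 0.08 to 0.09, and Mrps6, Mrpl36, Mrpl12 and Mrpl43 lie at the top.

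Large and small subunit did not stand apart. The median TE change was 0.03 over the 49 large-subunit genes and 0.01 over the 24 small-subunit genes, and the median footprint change was -0.01 in both. In footprints 2 large-subunit genes fell and 3 rose, and 1 small-subunit gene fell and 1 rose. By evolutionary origin, the 26 universally conserved proteins had 2 genes that fell (Mrpl30 and Mrps15) and 0 that rose. The 19 with a counterpart in bacteria had 0 that fell and 3 that rose (Mrps6, Mrpl36 and Mrpl12), and the 28 mitochondria-specific ones had 1 of each (Mrpl51 and Mrpl43). Over all genes 4.55% fell and 5.47% rose in footprints (limma, FDR of 0.1), shares that leave few calls to be seen in classes of this size. The differences between these classes were not tested.

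The members were then divided by their AUG uORFs. The 21 with a uORF within the 5′ UTR had a median TE change of 0.01, with 9 below 0 and 12 above, against -0.04 over the 4282 genes of this kind among all genes. The 47 without an AUG uORF had a median of 0.03. At an unadjusted p below 0.05 (limma), TE was lower in 5 of the 21 and in 0 of the 47, while over all genes it was lower in 334 of 4282 with a uORF within and in 184 of 5394 without an AUG uORF. In footprints 18 of the 21 were below 0 and 3 above, with 3 that fell and 1 that rose. Over all genes of this kind 2168 were below 0 and 2114 above, with 211 that fell and 172 that rose. Of the members without an AUG uORF 22 were below 0 and 25 above, with 0 that fell and 3 that rose (Mrps6, Mrpl12 and Mrpl43). Over all such genes 247 fell and 358 rose. The difference between the classes was not tested. In the 6 members whose uORFs all ran into the CDS, 0 passed the test in footprints, RNA or TE (limma), with 1 at an unadjusted p below 0.05 in each of footprints and RNA and 0 in TE.

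**Figure D4:**
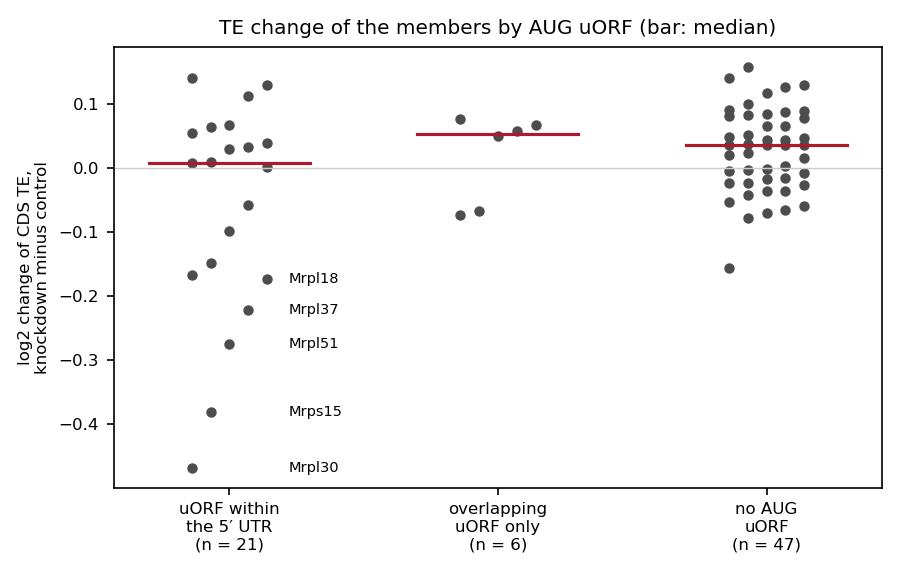
Log2 change of CDS TE, knockdown minus control, of each mitoribosomal protein gene by the AUG uORFs of its 5′ UTR, with a bar for the median. The 3 classes hold 21, 6 and 47 genes, and the 5 genes with an unadjusted p below 0.05, from -0.47 (Mrpl30) to -0.17 (Mrpl18), are all in the class with a uORF within the 5′ UTR.

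In the 6 genes shown above with AAG directly before a CDS that opens with ATGGCGGC, TE changes ran from -0.07 to 0.13. Their footprint changes ran from -0.08 to 0.06. None of the 6 passed the test in TE, footprints or RNA, and 0 had an unadjusted p below 0.05 in any of them (limma). Of the 19 genes with ATGGCGGC at the CDS start, likewise 0 passed and 0 had an unadjusted p below 0.05 in any of the 3 measures (limma), with TE changes from -0.08 to 0.14. Over all 434 genes with that start, TE passed in 0, and footprints fell in 12 and rose in 26. Of the 10035 genes with another start, footprints fell in 466 and rose in 545, shares that leave few calls to be seen among 19 members. None of the 19 members had the 5′ UTR coverage used below.

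Ribosomes on the 5′ UTR were followed in the 25 members with 20 or more footprint reads there in 9 or more of the 11 RPF-seq libraries. The other 49 members did not reach this coverage and were not tested. The measure is the log2 ratio of 5′ UTR to CDS footprint RPKM, here called relative 5′ UTR translation. In control cells its median was -1.72 over these members and -0.89 over the 5175 genes with this coverage. It ran from -5.92 in Mrpl13 to 0.96 in Mrps15 and 1.22 in Mrpl37, the only 2 of the 25 with more footprints per kilobase on the 5′ UTR than on the CDS, which 27.7% of all covered genes had. Both carry the 18 nt uORFs shown above, but Mrpl42, which also has an 18 nt uORF, was at -0.69 ± 0.26. In Mrps15 the 5′ UTR had 234, 319 and 309 RPKM with Denr shRNA1, 297, 258 and 331 RPKM with Denr shRNA2, 225 and 311 RPKM with Gfp shRNA, and 207, 387 and 299 RPKM with scramble shRNA, above the CDS in every lysate.

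On knockdown, relative 5′ UTR translation moved to higher values in 24 of the 25 members, the exception being Mrps21 (-0.10). The median change was 0.34, and over all covered genes it was 0.33. The test was passed by 5 members (20%), all higher, against 18.1% of all covered genes, in which 937 of the 939 that passed were higher. The members thus shared a shift that the covered genes showed as a whole. In an alternative, the 5′ UTR and the CDS values of each library were each centred on their median over all genes. The median of the members was then -0.03 and 0 of the 25 passed, while the median over all covered genes was -0.04. The same ratio in RNA-seq had a median change of -0.03 over the members, with 0 that passed (0.00% of all covered genes) and 0 at an unadjusted p below 0.05 (4.27% of them, limma). The control lysates varied in this measure, with medians over all covered genes from -0.27 (replicate 1 of Gfp shRNA) to 0.23 (replicate 2 of Gfp shRNA) around the control mean, and the knockdown lysates had 0.21 to 0.46.

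Mrpl3, a universally conserved protein near the catalytic centre of the large subunit, had the largest change. Its relative 5′ UTR translation was -0.68, -0.13 and -0.56 with Denr shRNA1, -0.49, -0.04 and -0.40 with Denr shRNA2, -1.19 and -0.57 with Gfp shRNA, and -1.12, -1.39 and -2.45 with scramble shRNA. The second Gfp lysate lay within the knockdown range. The change was 0.96 (SE 0.25, limma, adjusted p = 0.052), and it lay on the side of the 5′ UTR, with 65.8 ± 10.5 RPKM in knockdown cells and 36.9 ± 12.1 RPKM in controls, while the CDS footprint change was -0.06. Without replicate 3 of scramble shRNA the change was 0.68 and still past the threshold.

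In Mrpl57, a mitochondria-specific large-subunit protein, and in Mrpl30 the groups did not overlap, against 4.83% of all covered genes. Mrpl57 had -1.84, -1.59 and -1.65 with Denr shRNA1, -1.70, -1.40 and -1.50 with Denr shRNA2, -2.08 and -1.87 with Gfp shRNA, and -2.30, -2.03 and -3.84 with scramble shRNA. The gap between the groups was narrow, and the change was 0.81 (SE 0.28, limma, adjusted p = 0.083). Without replicate 3 of scramble shRNA, the lowest lysate, it was 0.46 and no longer past the threshold. In Mrpl30 the values were -2.46, -2.52 and -2.54 with Denr shRNA1, -1.99, -2.49 and -2.43 with Denr shRNA2, -3.14 and -2.73 with Gfp shRNA, and -2.97, -2.83 and -3.18 with scramble shRNA. The change was 0.57 (SE 0.17, limma, adjusted p = 0.064). Here the 5′ UTR footprints were 22.4 ± 2.11 RPKM against 19.9 ± 3.52 RPKM, a log2 change of 0.19 against -0.38 on the CDS. The 5′ UTR behind these values was longer than that of the transcript on which the uORFs of Mrpl30 were found.

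Mrpl16 (0.56, SE 0.19, adjusted p = 0.086) and Mrpl41 (0.53, SE 0.19, adjusted p = 0.090) were the other 2 that passed with limma, the first on 19 to 55 reads per library. Without replicate 1 of Denr shRNA1 neither passed, while Mrpl51 did (0.47, limma, adjusted p = 0.092), and Mrpl3, Mrpl57 and Mrpl30 still passed. Of 21 settings, Mrpl3 passed in 14, Mrpl30 in 13, Mrpl57 in 11, Mrpl16 in 10 and Mrpl41 in 9. With either Denr shRNA alone 0 of these 5 passed. Of the 5, only Mrpl30 held an AUG uORF in the transcript used. Only in Mrpl3 and Mrpl41 did the lengths behind the RPKM equal those of that transcript. For Mrpl57, Mrpl16 and Mrpl30 the region measured may therefore hold other uORFs, or none. Mrps15 (0.35) and Mrpl51 (0.39), whose CDS footprints fell, had adjusted p-values of 0.15 and 0.11 in this measure (limma).

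**Figure D5:**
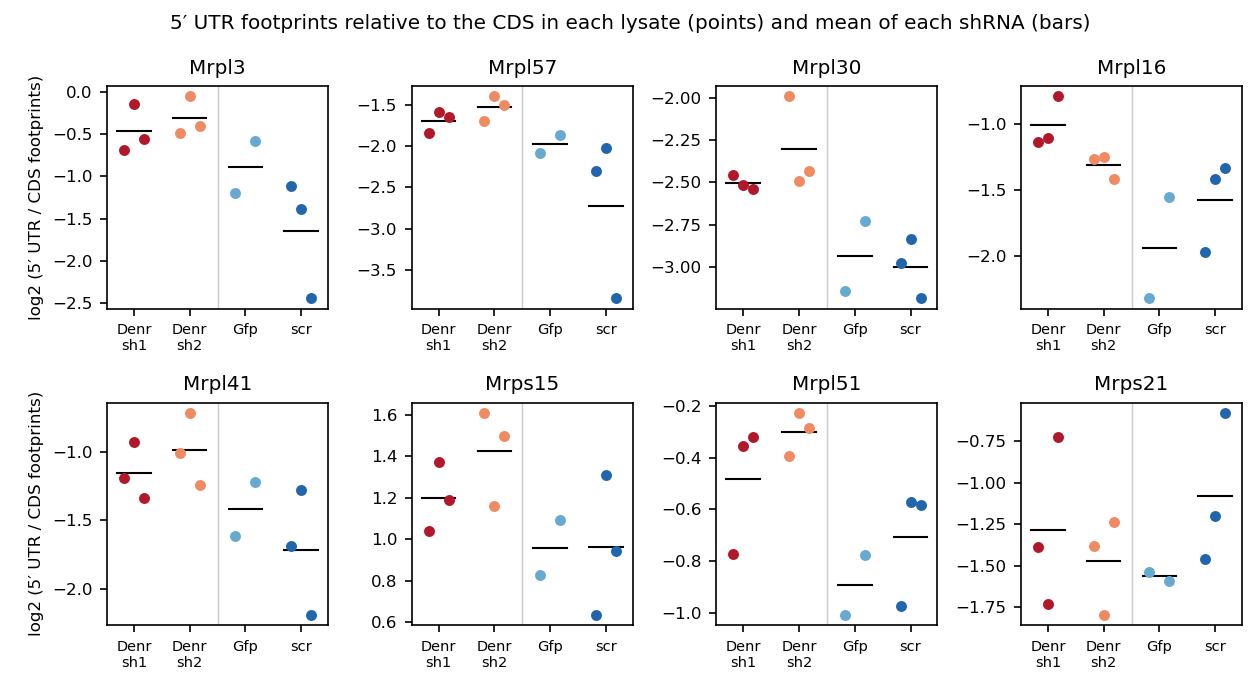
Log2 ratio of 5′ UTR to CDS footprint RPKM of 8 mitoribosomal protein genes in each of the 11 lysates, as points with a bar for the mean of each shRNA and with a vertical axis of its own for each gene. In Mrpl57 and Mrpl30 the knockdown points all lie above the control points, Mrps15 lies above 0 in every lysate, and Mrps21 is the only covered gene of the family with a lower mean in knockdown cells.

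Footprints on the 5′ UTR taken by themselves had a change above 0 in 24 of the 25 members. The test (limma, FDR of 0.1) was passed by 5, all higher (20%, against 23.0% of all covered genes). They were Mrpl3 (log2 change 0.90), Mrpl57 (0.81), Mrps16 (0.60), Mrpl41 (0.53) and Mrpl14 (0.52). None of the CDS footprint changes of these 5 genes passed the test, and those changes ran from -0.06 to 0.11.

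The Denr shRNAs were also compared with each other. In TE 0 members passed (limma, FDR of 0.1, 0.00% of all genes) and 0 had an unadjusted p below 0.05 (3.73% of all genes), whereas 5 differed in CDS footprints (6.76%, against 9.69% of all genes) and 12 at an unadjusted p below 0.05 (against 19.7%). In RNA 0 members differed at an FDR of 0.1 (2.06% of all genes) and 15 at an unadjusted p below 0.05 (20.3%, against 13.6% of all genes, limma). The largest difference was that of Mrps17, the counterpart of bacterial S17. It had 324, 310 and 305 RPKM with Denr shRNA1 and 248, 244 and 238 RPKM with Denr shRNA2, and its controls lay between 275 and 320 RPKM. With Denr shRNA2 it was thus below all controls, and with Denr shRNA1 it was within or just above them (shRNA2 minus shRNA1 -0.36, limma, adjusted p = 0.0082). None of the 5 was among the 7 members that changed between knockdown and control cells. Gfp and scramble shRNA, the controls, also differed, with 7 members lower in CDS footprints with Gfp shRNA (9.46%, against 3.10% of all genes that were lower). They were Mrpl16, Mrpl20, Mrpl21, Mrpl35, Mrpl50, Mrps10 and Mrps16, and none of them passed in CDS footprints between knockdown and control cells with both controls together. With scramble shRNA as the only control 5 of the 7 (Mrpl16, Mrpl20, Mrpl21, Mrpl35 and Mrpl50) were lower in knockdown cells.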

How the data were processed

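RPKM values of the CDS and 5′ UTR of each gene in 22 libraries (11 RPF-seq, 11 RNA-seq) were used as the authors deposited them. Per the labels and the study's methods, reads were trimmed with cutadapt, aligned to rRNA, tRNA and cDNA with Bowtie2 2.2.1 and to the mouse genome (GRCm38.p2) with TopHat2 2.0.11, and counted on the isoforms found with Cufflinks 2.2.1, footprints by their putative A-site. RPF-seq and RNA-seq were scaled separately by the upper quartile with edgeR before the authors computed RPKM. Genes with few reads and mitochondrially encoded genes had been removed. How reads of near-identical copies were assigned, and whether counting used strand, is not given in the sources used here. By the GENCODE vM21 annotation, 15 of the 74 members share exon bases with another gene.

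The whole reads behind each RPKM were recovered from the steps between values and served for depth and the coverage filter. Knockdown (6 lysates) and control (5) were compared on log2(RPKM + 0.1) with limma 3.58.1 (trend) in R 4.3.3, with 1 coefficient for knockdown, over all 10516 genes, with Benjamini-Hochberg adjustment over all genes and an FDR of 0.1. On this scale the change of low genes is understated. Relative 5′ UTR translation was tested over the 5175 covered genes. Exact two-sided permutation tests used the 462 splits of the lysates, with 0.0022 as the smallest possible p. The fit was tested on simulated data. Between replicates of a shRNA (10 pairs), R2 over the members was 0.965 to 0.991 in RPF-seq and 0.954 to 0.994 in RNA-seq. The 5′ UTR lengths behind the RPKM matched those of the transcript used in 38 of 74 members. Sequences came from GENCODE vM21 transcripts (GRCm38), and a uORF was an AUG followed in frame by a stop codon, of 9 nt or more. Python 3.11.15 was used for all other steps.

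Differences between shRNAs came from a limma fit of 4 groups. The members and gene lists were chosen with earlier results of these data known. Named were the members past the threshold, the 4 lowest and 4 highest changes in TE, footprints and RNA, the 3 highest and 3 lowest control levels, and the 5 uORF-bearing members with the largest TE changes. Mrps17 and the other members that differed between shRNAs of 1 kind were named after their values were seen. Alternatives were the pseudocount, a filter on low values, centring, the limma trend, the replicate number as a block, each Denr shRNA or scramble shRNA alone, voom on the recovered reads, and leaving out each lysate. Ptprc, Epcam, Krt8 and Pecam1, markers of other cell types, were not analysed here.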

Additional observations from a re-analysis of the deposited data

Results flagged for a closer look

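In all, 6 results came from a lysate far from the others of its group. They were found among 94 groups tested with Dixon's criterion, which chance flags in about 1 of 20 groups. Both medians over the 74 members came from replicate 1 of Denr shRNA1, with -0.227 for TE and 0.243 for RNA relative to the control mean. The same lysate had a low log2 TE of -0.088 in Mrps18a. Mrpl13 RNA was low in replicate 2 of Gfp shRNA (373 RPKM). Relative 5′ UTR translation was high for Mrpl30 in replicate 1 of Denr shRNA2 (-1.99) and low for Mrpl57 in replicate 3 of scramble shRNA (-3.84).

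In addition, 5 members differed in CDS footprints between the Denr shRNAs by a limma test of the difference itself (shRNA2 minus shRNA1). They were Mrps17 (-0.36, adjusted p = 0.0082), Mrpl21 (-0.22, adjusted p = 0.039), Mrpl49 (-0.22, adjusted p = 0.055), Mrps36 (0.25, adjusted p = 0.063) and Mrps24 (0.26, adjusted p = 0.086).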

How the results depend on the processing

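The count of members that passed in TE was 0 under every alternative run except the replicate number as a block, where it was 2 (Mrpl30 and Mrps15). In CDS footprints 7 passed, and 2 did so when Denr shRNA1 was the only knockdown, and 13 when scramble shRNA was the only control, while leaving out 1 lysate gave 3 to 8 (3 without replicate 2 of scramble shRNA, 4 without replicate 2 of Denr shRNA2). In RNA 0 passed in the design used, 2 with the block, 3 with Denr shRNA2 alone, 1 with scramble shRNA alone and 1 with voom, and leaving out 1 lysate gave 0 to 2 (2 without replicate 1 of Denr shRNA1). The RNA change of Mrpl12 turned to -0.049 with Denr shRNA2 alone. In relative 5′ UTR translation 5 passed, against 0 after centring (median change -0.027), 11 with the block, 0 with either Denr shRNA alone and 0 with a 5′ UTR RPKM of at least 1. Leaving out 1 lysate gave 0 to 9 there, with 0 without replicate 2 of either Denr shRNA or replicate 1 of Gfp shRNA, 1 without replicate 1 of scramble shRNA, 2 without replicate 3 of Denr shRNA1, 3 without replicate 3 of scramble shRNA and 9 without replicate 2 of Gfp shRNA. The cause of these differences was not tested. Among the 27 named members, 94 of 1639 recomputed values changed sign, 0 of them values that had passed, and the largest of them was 0.11 in the design used.

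Lysates of different shRNAs share replicate numbers, but the numbers were not taken as pairs. Of 15 same-numbered pairs, 13 had a correlation of deviations over 0.1 in footprints, 10 in RNA and 10 in TE, and 9, 5 and 9 of 11 lysates correlated best with their own number. Between the Denr shRNAs the block raised the members that differed from 5 to 10 in footprints and from 0 to 9 in RNA (Mrps17 -0.50). The median TE change of members with a uORF and matching annotated length, an alternative chosen after seeing the data, was 0.0094, against 0.0072 for all 21. The 5′ UTR was not tested in 49 members, which did not reach the coverage set for it.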

Other observations

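Other genes of mitochondrial translation, from lists that do not hold the Mrpl and Mrps genes, were read in the same fits. TE passed the test (limma, FDR of 0.1) in 0 genes of each list. Of 5 mitoribosomal proteins with other names, such as Dap3, 0 passed in CDS footprints. Of 13 mitochondrial translation factors, 2 fell in CDS footprints, where 4.55% of all genes fell. They were Mtif2, the mitochondrial initiation factor that brings the initiator tRNA (2.02 ± 0.27 against 2.93 ± 0.54 RPKM, log2 change -0.50, limma, adjusted p = 0.052), and Lrpprc, which stabilizes mitochondrial mRNAs (28.1 ± 1.4 against 32.4 ± 2.7 RPKM, -0.20, limma, adjusted p = 0.091). The RNA change was -0.21 in Mtif2 and -0.20 in Lrpprc, and the TE change was -0.29 in Mtif2 and -0.0047 in Lrpprc. Relative 5′ UTR translation, which passed in 18.1% of all covered genes, was above 0 in its change in all 5 covered factors. It passed in 2 of them, Mtif2 (0.59, limma, adjusted p = 0.086) and Gfm1, a mitochondrial elongation factor (0.47, limma, adjusted p = 0.085). Footprints on the 5′ UTR by themselves changed by 0.09 in Mtif2 (limma, adjusted p = 0.74) and by 0.26 in Gfm1 (limma, adjusted p = 0.24). The CDS footprint changes were -0.50 and -0.21.

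Of 22 assembly and rRNA factors, Fastkd2, an RNA-binding protein of mitochondrial RNA granules, fell in CDS footprints (8.23 ± 0.58 against 12.2 ± 2.7 RPKM, log2 change -0.54, limma, adjusted p = 0.030) and in RNA (-0.41, limma, adjusted p = 0.064). It was the only one of its list to pass in footprints. Dhx30, an RNA helicase of the same granules, was 1 of 6 covered genes of this list. It was the only one that passed in relative 5′ UTR translation (0.45, limma, adjusted p = 0.086), while 5 of the 6 had a change above 0.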
